A study of Mus musculus with 26 samples.

Results

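Motor neuron spheroids in medium labelled low intensity were compared with biochemical controls by RNA sequencing. The 10 libraries of this comparison were taken from 26 in the series: low-intensity replicates 1 to 5 and control replicates 1, 2, 3, 5 and 6, so n = 5 in each group. Low-intensity replicate 6 and control replicate 4 were set aside because their protein-coding counts summed to 1151 and 272212, under the limit of 1000000. Both groups started from HBG3 mESC HB9::GFP, a mouse embryonic stem cell line from heterozygous blastocysts in which a reporter marks cells that switch on the motor neuron gene Hb9 (Mnx1). The stem cells were expanded on a feeder layer and then differentiated with retinoic acid and puromorphamine (as the labels spell it), an agonist of the hedgehog pathway, with CNTF and GDNF, factors that support motor neuron survival, from day 5. Spheroids of about day 8 were seeded on fibrin, and these steps, and this 1 cell line, were shared by all groups. The protocol describes medium carrying myokines, the factors that muscle releases, but the labels do not say which muscle culture supplied the low-intensity group. The group is therefore named by its label only. The labels do not state whether replicates came from separate cultures, so the p-values measure the spread between these samples, which may be technical.

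Motor neurons are cholinergic neurons whose axons leave the spinal cord to contact muscle, and muscle in turn supplies them with trophic factors. Cultures derived from stem cells also hold progenitors and glia. In bulk RNA, fewer cells of one kind and less RNA per cell cannot be told apart. Libraries of total RNA also count short structural RNAs, whose share of the reads affects the scale on which other genes are read.

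At low intensity the stress-responsive transcription factor Atf4, the glucose transporter Slc2a1, the annexin Anxa3, the urokinase Plau, the filament protein Vim and the lamin Lmna were higher than in the controls. The chromatin silencing factor Tasor, the neuronal RNA-binding protein Elavl4 and the short noncoding RNAs Bc1, Rpph1 and Scarna10 were lower. In all, 88 of 14730 genes (0.597%) were called at a Benjamini-Hochberg adjusted p below 0.05 in edgeR's quasi-likelihood test, and of these 65 were higher (0.441%) and 23 lower (0.156%). The median log2 fold change was 1.22 among the higher genes, -0.86 among the lower genes and -0.01 over all genes fitted. Of all genes fitted, 49.1% had a log2 fold change above 0. All 5 low-intensity libraries lay above all 5 controls for 188 genes (1.28%) and below them for 143 (0.971%), and 47 of the 65 higher and 17 of the 23 lower genes were among these.

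The count depended on single libraries. Without low-intensity replicate 1, only Atf4 (adjusted p = 0.0163, edgeR) and Slc2a1 (0.0371) passed. The count was 15 without low-intensity replicate 2, 19 without replicate 5 and 264 without replicate 3. Without controls 1, 2, 3, 5 and 6 in turn it was 40, 39, 54, 41 and 148. The fit shared its estimate of spread with 11 further libraries of the series. On the 14 libraries of the 3 medium groups 11 of 13548 genes (0.0812%) passed. On the 10 libraries alone, 21 of 12428 genes (0.169%) passed, and 19 of these were among the 88: Atf4, Slc2a1, Sdc4, Itprid2, Anxa3, Nab2, Plau, Baz1a, Emp1, Ahnak, Chd1, Neat1, Anxa1 and Lmna, all higher, and Tasor, Zfhx4, Bc1, Rpph1 and Scarna10, all lower. Emp1, Ahnak, Chd1 and Lmna fall outside the rule by which genes were named and were chosen for this agreement between fits after their values were seen.

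Total counts per library were 1551334 to 3602716 at low intensity and 2273487 to 3771637 in the controls, which overlapped (exact two-sided permutation test, p = 0.333). Levels are given in CPM, counts per 1000000 after scaling. A gene with no count could still have had a level of 0.833 to 1.93 CPM (3 counts) in the low-intensity libraries and of 0.795 to 1.32 CPM in the control libraries. Protein-coding genes took 82.5% ± 2.47 of counts at low intensity and 74.5% ± 2.21 in the controls (SD, n = 5 each). This difference, and those of the miscellaneous RNA class and of ribozymes given next, separated all libraries of one group from all of the other. Each had an exact two-sided permutation p of 0.00794, the smallest that 5 against 5 libraries can give, and 0.0344 after Benjamini-Hochberg adjustment over 13 measures. When any 1 of the 5 low-intensity libraries was left out, the adjusted exact permutation p of all 3 rose to 0.103. The unadjusted exact permutation p of protein-coding genes stayed at 0.00794. That of ribozymes rose to 0.0238 and that of miscellaneous RNA to 0.0159 to 0.0238. Leaving a library out cannot make separated groups overlap, so these fits cannot decide whether the differences rest on single libraries. The adjusted p was 0.0258 to 0.0344 when a control was left out. Mitochondrial rRNA took 9.95% ± 1.20 against 12.95% ± 1.89 (exact permutation p = 0.0317, adjusted 0.103), and nuclear rRNA 1.31% ± 0.581 against 1.33% ± 0.623.

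The short noncoding RNAs Bc1, Rpph1 and Scarna10 were lower at low intensity, and the sequences of Bc1 and Rpph1 are shown because they are the 2 called members of the polymerase III list. Bc1 is a small cytoplasmic RNA of rodent neurons that represses translation near synapses. It is transcribed by RNA polymerase III from an internal promoter made of an A box and a B box. Rpph1 is the catalytic RNA of ribonuclease P, which trims the 5′ ends of transfer RNAs and is also a polymerase III transcript, with its promoter upstream. The sequences are those of GENCODE M21 (GRCm38), matched by gene identifier. Capitals mark the A box and the B box, found by their consensus letters on the transcript strand.
Bc1 (chr7:144914470-144914637, plus strand): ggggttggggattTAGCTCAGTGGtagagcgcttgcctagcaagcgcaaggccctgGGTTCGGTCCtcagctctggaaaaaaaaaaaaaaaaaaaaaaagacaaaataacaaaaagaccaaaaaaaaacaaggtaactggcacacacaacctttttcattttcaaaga
Rpph1, bases 1 to 300 (chr14:50807449-50807767, minus strand): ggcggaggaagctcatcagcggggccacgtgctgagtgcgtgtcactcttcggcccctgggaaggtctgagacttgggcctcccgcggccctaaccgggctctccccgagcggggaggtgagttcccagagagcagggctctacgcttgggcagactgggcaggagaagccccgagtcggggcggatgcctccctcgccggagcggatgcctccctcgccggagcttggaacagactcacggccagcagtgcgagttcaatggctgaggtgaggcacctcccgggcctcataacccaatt
The boxes began at bases 14 and 57 of the 168-base Bc1 transcript, and the 319-base Rpph1 transcript held neither. Of 16888 noncoding transcripts under 400 bases, 0.113% held the A box letters, 0.166% the B box letters and 1 held both.

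Bc1 measured 86.3, 94.8, 122, 240.2 and 294 CPM in low-intensity replicates 1 to 5 and 705, 1825, 1035, 216 and 984 CPM in control replicates 1, 2, 3, 5 and 6. The groups overlapped through control replicate 5, which lay below low-intensity replicates 4 and 5. On the log2 scale it differed by -2.52 with a standard error (given after ± from here on) of 0.52 (edgeR adjusted p = 0.0297). Rpph1 measured 322, 330, 280, 459.6 and 416 CPM at low intensity and 3199, 1397, 847, 930.2 and 1882 CPM in the controls, with no overlap. It differed by -2.20 ± 0.48 (edgeR adjusted p = 0.037, and 0.0107 on the 10 libraries alone).

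Scarna10, a guide RNA of Cajal bodies, measured 10.2, 21.7, 17.0, 8.85 and 11.9 CPM at low intensity against 221, 56.1, 18.8, 59.9 and 68.7 CPM in the controls. Control replicate 1 stood apart at the top, and control replicate 3 fell below low-intensity replicate 2. It differed by -2.60 ± 0.57 (edgeR adjusted p = 0.037), and -1.86 without control replicate 1. Without control replicate 1, Rpph1 differed by -1.81 and Bc1, without control replicate 2, by -2.15.

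Other polymerase III RNAs had values below 0 without passing the test in the shared fit. The 7SL RNA of the signal recognition particle, which directs secreted proteins to the endoplasmic reticulum, is counted under 2 genes, Rn7s1 and Rn7s2, between which reads may have been divided. Rn7s1 measured 10450, 7449, 8242, 14520 and 16770 CPM at low intensity and 29020, 60990, 29870, 28220 and 40890 CPM in the controls. The groups did not overlap, and the log2 fold change was -1.72 ± 0.51 (edgeR adjusted p = 0.098, and 0.0109 on the 10 libraries alone). Rn7s2 measured 1156, 2638, 1946, 971 and 5273 CPM at low intensity and 76000, 2697, 8549, 2401 and 12330 CPM in the controls, where replicate 1 was far above the other 4. It differed by -3.09 ± 0.87 (edgeR adjusted p = 0.0818). Rn7sk, which holds the elongation factor P-TEFb inactive, differed by -1.03 ± 0.26 (edgeR adjusted p = 0.0582). Rmrp, the RNA of ribonuclease MRP, differed by -0.41 ± 0.38 (edgeR adjusted p = 0.663).

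Of 8 fitted polymerase III RNAs, 2 were called lower, against 0.156% of all genes, 6 were not called, and all 8 log2 fold changes were below 0 with a median of -1.67. Their summed level was 11930 to 26540 CPM at low intensity and 33960 to 113800 CPM in the controls. By annotation class, miscellaneous RNA, which includes 7SL, 7SK and Y RNAs, took 1.59% ± 0.539 of counts at low intensity and 5.69% ± 2.75 in the controls, and ribozymes, which include Rpph1, took 0.0364% ± 0.00715 and 0.152% ± 0.0901 (SD, n = 5 each). The remaining libraries were not uniform in this measure. As a share of counts outside rRNA and mitochondrial genes, miscellaneous RNA was 1.404% to 5.38% in the 4 deeper high-intensity libraries and 1.24% to 4.00% in the 7 deeper array libraries, beside 1.32% to 2.88% at low intensity and 3.71% to 11.6% in the controls compared. The set-aside control replicate 4 stood at 8.56% on this measure, but at 1.83% of all counts, the measure tested, which lies inside the low-intensity range of 1.19% to 2.46%. The labels give neither a batch nor a measure of RNA quality for these libraries. Of 15 mitochondrially encoded genes none was called, with 14 below 0 and a median of -0.51.

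**Figure D1:**
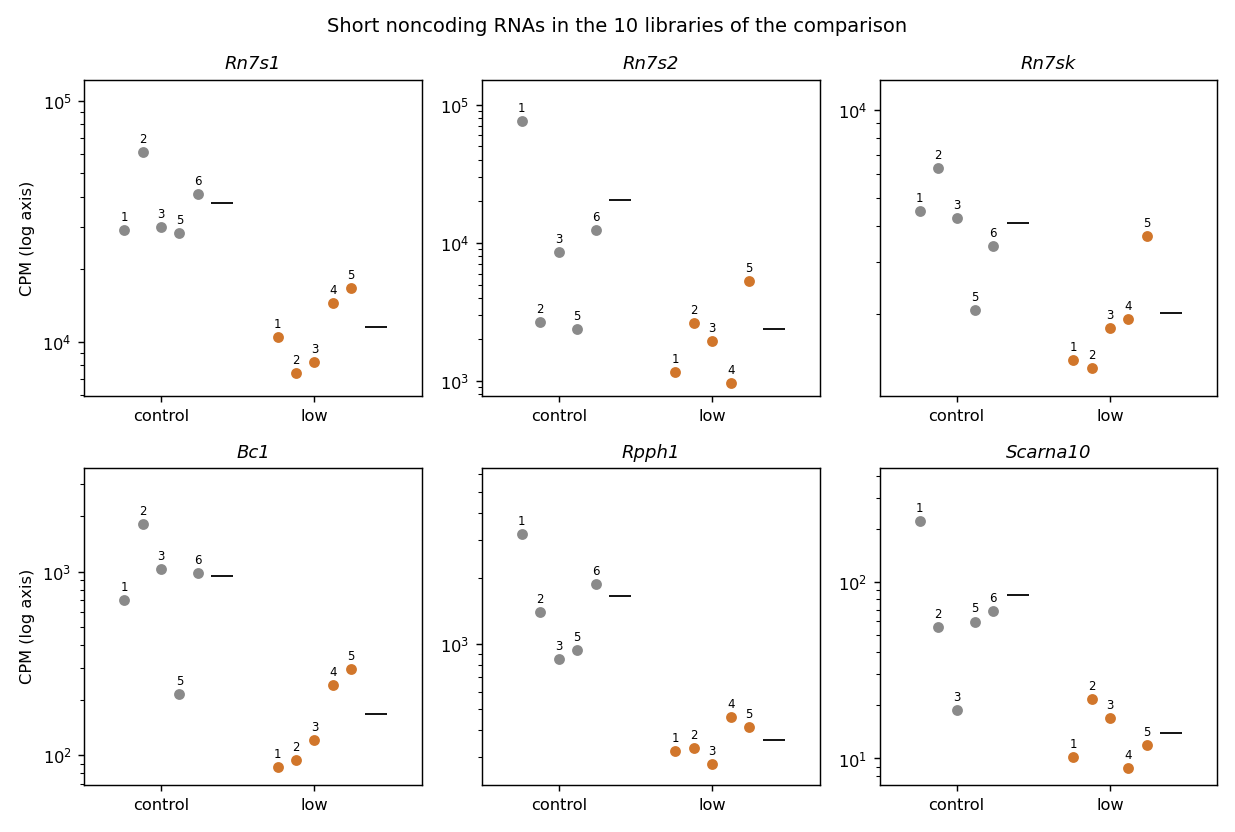
Normalised level (CPM, log axis) of 6 short noncoding RNAs in the 5 control (grey) and 5 low-intensity (orange) libraries; numbers are replicate numbers and black bars are group means. Rn7s1 and Rpph1 show no overlap between groups, while Bc1, Rn7s2, Rn7sk and Scarna10 overlap.

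The 7SL share also sets the scale on which other genes are read. In the deposited transcripts per 1000000 (TPM), which give every transcript weight per length, 7SL took 11.9% to 19.9% of the total at low intensity and 27.8% to 61.0% in the controls. On log2(TPM + 1), the median of all fitted genes was 0.64 higher at low intensity. Directions below are those of the count fit, whose median was -0.01. All 65 higher genes were above 0 and above that TPM median. Of the 23 lower genes, 14 were below 0 on the TPM scale and all 23 were below its median, though Xrn1 by a negligible margin (-0.004).

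Single regulators of stress and metabolism rose, while no other member of their lists passed the test. Atf4 encodes the transcription factor of the integrated stress response. It measured 199.7, 173, 170, 185 and 214 CPM in low-intensity replicates 1 to 5 and 112, 110, 95.8, 113 and 112 CPM in the controls. Every low-intensity library lay well above every control, and the log2 fold change was 0.80 ± 0.11 (edgeR adjusted p = 0.00293). The 7 deeper array libraries also lay above every control, at 160 to 207.5 CPM. Of 14 fitted genes of the integrated stress and unfolded protein responses, 1 (Atf4) was called and the median was 0.10. The Atf4 targets Asns (asparagine synthetase), Ddit3 (CHOP) and Trib3 gave -0.14 ± 0.13, 0.07 ± 0.20 and 0.19 ± 0.58, and the chaperone Hspa5 gave 0.10 ± 0.09; none passed. On the TPM scale 12 of the 14 were above the 0.64 median of all genes.

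Slc2a1 encodes GLUT1, the glucose transporter of glia, endothelium and dividing cells. It measured 65.6, 87.3, 66.1, 51.8 and 66.7 CPM at low intensity and 28.2, 38.6, 28.5, 32.3 and 38.3 CPM in the controls, without overlap. Slc2a1 differed by 1.03 ± 0.17 (edgeR adjusted p = 0.00852). The neuronal transporter Slc2a3 (GLUT3) measured 200.2 ± 38.6 against 199 ± 38.5 CPM (SD, n = 5 each) and differed by 0.01 ± 0.14. Of 18 fitted genes of hypoxia and glycolysis, Slc2a1 was the 1 called, and the median was 0.09. Lactate dehydrogenase Ldha gave 0.03 ± 0.10 and phosphofructokinase Pfkp gave -0.44 ± 0.19.

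Hmox1, the haem-degrading enzyme induced by oxidants, measured 54.8, 43.5, 35.8, 40.5 and 24.5 CPM at low intensity and 19.3, 21.0, 15.8, 11.2 and 20.9 CPM in the controls. No library overlapped, with replicate 5 the lowest of the low-intensity group. The log2 fold change was 1.16 ± 0.24 (edgeR adjusted p = 0.0293), and it was the 1 called gene of 13 in the antioxidant list. Hspb1, a small heat shock protein that guards actin filaments and axons, measured 125, 65.9, 51.1, 50.6 and 144 CPM against 35.4, 38.9, 28.1, 41.2 and 42.0 CPM, again without overlap. It differed by 1.25 ± 0.29 (edgeR adjusted p = 0.0443) and was the 1 called of 13 heat shock genes. Reads of Hspb1 and of its pseudogene Hsp25-ps1, also called, may have been divided between the copies. Hsp25-ps1 had 44, 27, 0, 0 and 31 counts in low-intensity replicates 1 to 5 and 0 in every control, so replicates 3 and 4 matched the controls. As a group sum, its 102 counts were at least 35.9-fold higher against a floor of 3 counts over the control group.

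The annexins Anxa3 and Anxa1, Plau and Sdc4 rose at low intensity, and Anxa3, Anxa1 and Plau did so unevenly among the libraries. Annexins bind membranes in a calcium-dependent way and take part in membrane repair. Anxa3 measured 56.7, 42.3, 8.52, 18.97 and 66.3 CPM at low intensity and 0.288, 1.05, 0, 1.87 and 5.22 CPM in the controls. Replicates 1, 2 and 5 were highest and replicate 3 was nearest to the controls, which it did not overlap. The log2 fold change was 4.45 ± 0.78 (edgeR adjusted p = 0.0172), and 5.68 without control replicate 6. Anxa1 measured 145, 96.6, 23.5, 35.4 and 185 CPM against 11.2, 7.01, 7.31, 24.8 and 23.2 CPM and overlapped through low-intensity replicate 3. The difference was 2.74 ± 0.62 (edgeR adjusted p = 0.0418).

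All 12 fitted annexins and S100 partners had log2 fold changes above 0, beside 49.1% of all genes, with a median of 1.20. The test called 2 of them higher, beside 0.441% of all genes. Anxa2 gave 0.71 ± 0.19 (edgeR adjusted p = 0.0615), Anxa4 gave 3.41 ± 0.83 (adjusted p = 0.0552) and S100a6 gave 2.24 ± 0.55 (adjusted p = 0.058). The summed level of the list was 836, 824, 435, 604 and 1014 CPM in low-intensity replicates 1 to 5 and 398, 347, 383, 426 and 415 CPM in the controls. Low-intensity replicate 3 was the lowest of its group and the group did not overlap with the controls.

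Plau encodes urokinase, which activates plasminogen at the cell surface and lets growing cells cross fibrin. It measured 27.7, 16.9, 4.09, 13.3 and 96.9 CPM at low intensity and 3.74, 2.10, 1.54, 2.34 and 3.77 CPM in the controls. Replicate 5 was far above the rest of its group and replicate 3 lay just above the highest control. The log2 fold change was 3.53 ± 0.65, with an edgeR adjusted p of 0.019, and was 2.49 when low-intensity replicate 5 was left out. Its receptor Plaur gave 1.37 ± 0.87 (edgeR adjusted p = 0.482), the tissue activator Plat 0.32 ± 0.16 and the inhibitor Serpine2 0.33 ± 0.15, so that 1 of 7 fitted genes of plasminogen activation was called.

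Sdc4, a heparan sulphate receptor of focal adhesions, measured 102, 76.4, 63.4, 63.2 and 94.6 CPM at low intensity and 31.9, 42.4, 34.6, 52.4 and 41.4 CPM in the controls. The groups did not overlap, and the log2 fold change was 0.99 ± 0.16 (edgeR adjusted p = 0.00852). Of 14 integrins and matrix receptors it was the 1 called, with Itgb1, the common integrin beta chain, at 0.68 ± 0.17 (edgeR adjusted p = 0.0569). Itprid2, a binding partner of actin and inositol trisphosphate receptors, measured 128, 114, 110, 115 and 75.2 CPM against 61.8, 56.1, 45.4, 56.2 and 64.3 CPM, without overlap, and differed by 0.93 ± 0.15 (edgeR adjusted p = 0.00852).

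Vim and Nes, and Lmna among genes picked after their values were seen, were higher at low intensity, with replicates 1, 2 and 5 the highest. Vim, the filament protein of progenitors, glia and mesenchyme, measured 2135, 1406, 897, 864 and 2213 CPM at low intensity and 637, 928, 862, 603 and 699 CPM in the controls. Replicates 1, 2 and 5 stood above all controls, while replicates 3 and 4 lay within the control range. Vim differed by 1.01 ± 0.22 (edgeR adjusted p = 0.0352). Nes, the filament of neural progenitors, measured 380.4, 354, 117, 206 and 601 CPM against 123, 168, 116, 107 and 104 CPM, with replicate 3 inside the control range, and differed by 1.43 ± 0.33 (edgeR adjusted p = 0.0443). Lmna, which encodes the A-type nuclear lamins, measured 184, 170, 93.0, 84.7 and 246 CPM against 42.6, 68.3, 44.2, 72.1 and 52.2 CPM, without overlap, and differed by 1.49 ± 0.34 (edgeR adjusted p = 0.042).

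Vim and Nes were the 2 genes called of 13 markers of astrocytes and radial glia, beside 0.441% of all genes called higher. The remaining 11 were not called: Gfap gave 0.28 ± 0.16, the glutamate transporter Slc1a3 0.01 ± 0.13 and the progenitor factor Sox2 0.15 ± 0.21. Ahnak, a giant scaffold protein of the membrane, measured 782, 672, 206, 350.3 and 1041 CPM at low intensity against 104, 271, 71.5, 154 and 146 CPM, and the membrane protein Emp1 57.8, 30.3, 5.45, 18.3 and 54.1 CPM against 5.18, 0, 2.31, 0.468 and 5.80 CPM. For both, low-intensity replicate 3 was the lowest of its group; for Emp1 it lay below control replicate 6 and for Ahnak below control replicate 2.

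**Figure D2:**
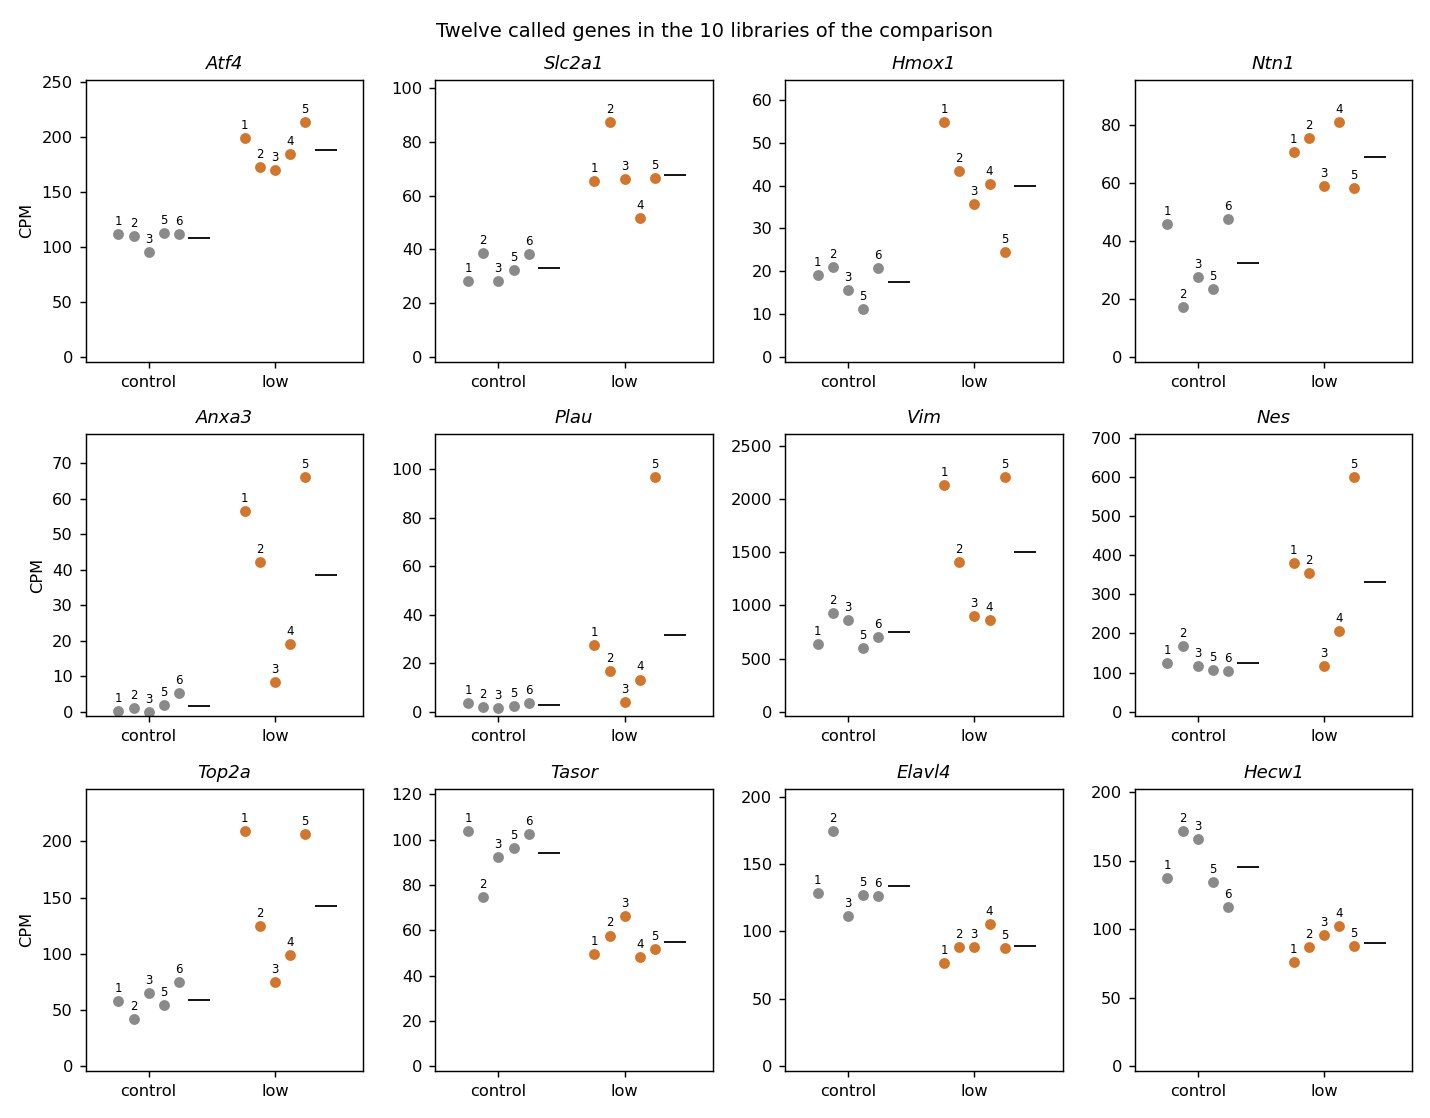
Normalised level (CPM) of 12 called genes in the 5 control (grey) and 5 low-intensity (orange) libraries; numbers are replicate numbers and black bars are group means. Atf4, Slc2a1, Hmox1 and Ntn1 lie above all controls in all 5 low-intensity libraries, with Hmox1 lowest in replicate 5. Anxa3, Plau, Vim, Nes and Top2a are highest in replicates 1 and 5 and near the controls in replicate 3. Tasor, Elavl4 and Hecw1 are lower in all 5 low-intensity libraries.

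Few genes of mechanical signalling passed the test. Wwtr1 encodes TAZ, which with YAP carries signals from the cytoskeleton to TEAD factors. It measured 81.3, 65.6, 58.6, 55.6 and 63.9 CPM at low intensity and 43.4, 37.9, 28.8, 37.4 and 44.6 CPM in the controls, without overlap, and differed by 0.76 ± 0.17 (edgeR adjusted p = 0.0372). It was the 1 called of 14 YAP and TAZ genes, whose median was 0.71 with all 14 above 0. Yap1 gave 0.67 ± 0.19 (edgeR adjusted p = 0.0748), and the targets Ccn2 and Ankrd1 gave 1.96 ± 0.60 and 2.85 ± 0.77 (adjusted p = 0.11 and 0.0683). Of 17 genes of serum response factor and the actin cytoskeleton none was called, with 16 above 0 and a median of 0.80. On the TPM scale 13 of the 14 YAP and TAZ genes and all 17 actin genes were above the median of all genes.

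Smad3, the transcription factor downstream of TGF-beta receptors, measured 42.6, 47.9, 36.5, 48.7 and 34.0 CPM at low intensity and 16.4, 14.4, 15.0, 27.6 and 25.8 CPM in the controls, without overlap. Its log2 fold change was 1.08 ± 0.22 (edgeR adjusted p = 0.0286), while 0 of 13 genes of the TGF-beta and BMP response were called (median 0.61, 11 above 0). Wls, which carries Wnt proteins to the cell surface, measured 49.3 ± 15.2 against 23.3 ± 7.33 CPM (SD, n = 5 each) and differed by 1.08 ± 0.22 (edgeR adjusted p = 0.0293). Fosl2, an AP-1 subunit, measured 36.2, 47.6, 27.6, 39.2 and 49.3 CPM against 23.6, 9.11, 16.5, 15.4 and 27.5 CPM and differed by 1.10 ± 0.25 (edgeR adjusted p = 0.0418); low-intensity replicate 3 and control replicate 6 met at the edge of the groups. It was the 1 called of 20 immediate early genes, among which Fos gave 0.84 ± 0.56 and Jun -0.18 ± 0.10. Nab2, a corepressor of EGR factors, measured 21.9, 20.2, 22.1, 16.4 and 27.9 CPM against 1.44, 1.05, 5.38, 6.08 and 5.80 CPM, without overlap, and differed by 2.49 ± 0.44 (edgeR adjusted p = 0.0172).

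Promoter letters were counted in RefSeq windows (GRCm38.p6) from 250 bases before to 50 after each start, on both strands. Windows were found for 45 of the 65 higher genes (54 windows) and for 9 of the 23 lower genes (13 windows). The AP-1 letters TGANTCA were in 3.70% of the windows of higher genes and 4.95% of 13767 windows of all fitted genes. The TEAD letters GGAATG were in 20.4% and 12.2%. These shares are descriptions, and a window without the letters says only that they are absent from these bases.

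Of the cell division genes listed, 1 passed the test. Top2a, the topoisomerase that untangles replicated chromosomes, measured 209, 125, 75.3, 98.6 and 207 CPM at low intensity and 58.4, 41.7, 65.4, 54.7 and 74.8 CPM in the controls. Replicates 1 and 5 were highest and replicate 3 barely exceeded the highest control. Top2a differed by 1.28 ± 0.28 (edgeR adjusted p = 0.0372). It was the 1 called of 21 cell cycle and replication genes, beside 0.441% of all genes called higher. All 21 were above 0, beside 49.1% of all genes, with a median of 1.25. On the TPM scale 20 of 21 were above the median of all genes. Mki67, a marker of cycling cells, gave 0.66 ± 0.25 (edgeR adjusted p = 0.19) and the mitotic kinase Cdk1 1.45 ± 0.45 (adjusted p = 0.116). The summed level was 1213, 892, 572, 724 and 1185 CPM in low-intensity replicates 1 to 5 and 515, 524, 621, 538 and 633 CPM in the controls, and low-intensity replicate 3 lay within the control range. Outside the list, and picked after their values were seen, the kinetochore genes Knl1 and Zwilch and the spindle motor Kif15 were also called, at 1.80 ± 0.41, 1.90 ± 0.41 and 1.504 ± 0.35.

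Chromatin and RNA factors were called in both directions. Baz1a, a subunit of ISWI remodellers, measured 76.9, 68.5, 50.1, 43.0 and 103 CPM at low intensity and 35.1, 29.8, 28.5, 23.9 and 22.6 CPM in the controls, without overlap, and differed by 1.29 ± 0.24 (edgeR adjusted p = 0.019). Chd1, a remodeller of transcribed chromatin, measured 139.9 ± 19.7 against 83.6 ± 8.90 CPM (SD, n = 5 each) and differed by 0.74 ± 0.16. Tasor, the core of the HUSH complex that silences transposable elements, measured 49.5, 57.7, 66.4, 48.1 and 51.7 CPM at low intensity and 104, 74.7, 92.3, 96.4 and 102 CPM in the controls. All 5 low-intensity libraries were below all controls, and the log2 fold change was -0.78 ± 0.14 (edgeR adjusted p = 0.0172). Atf7ip, which stabilises the SETDB1 methyltransferase, measured 177, 178, 184, 216 and 167 CPM against 322, 282, 229, 275 and 249 CPM, without overlap, and differed by -0.56 ± 0.11 (edgeR adjusted p = 0.0261).

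Zfhx4, a large zinc finger and homeodomain factor, measured 119, 142, 153, 163 and 146 CPM at low intensity and 251, 201, 241, 219 and 206 CPM in the controls, without overlap, and differed by -0.63 ± 0.12 (edgeR adjusted p = 0.019). Xrn1, the 5′ to 3′ exonuclease of mRNA decay, measured 30.7, 40.8, 43.3, 47.4 and 32.7 CPM against 72.2, 65.2, 60.4, 70.2 and 52.5 CPM, without overlap, and differed by -0.73 ± 0.15 (edgeR adjusted p = 0.0328). On log2(TPM + 1) the values of Tasor (0.03), Zfhx4 (0.32), Atf7ip (0.44), Xrn1 (0.63) and Hecw1 (0.21) turned above 0. Xrn1 lay at the 0.64 median of all genes there (-0.004 from it), so it was not lower on that scale, and the others were still under it. The nuclear RNA Neat1, the scaffold of paraspeckles, measured 108, 63.7, 56.2, 40.5 and 203 CPM at low intensity and 9.20, 34.7, 14.6, 7.95 and 22.6 CPM in the controls, without overlap. It differed by 2.40 ± 0.53 (edgeR adjusted p = 0.037), while Malat1, another abundant nuclear RNA, gave -0.29 ± 0.23 (adjusted p = 0.597).

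Few neuronal genes passed the test. Of 14 pan-neuronal genes, 1 was called lower. Elavl4 (HuD), which stabilises neuronal mRNAs, measured 76.9, 88.8, 88.6, 106 and 87.4 CPM at low intensity and 129, 175, 112, 127 and 126 CPM in the controls, without overlap, with control replicate 2 the highest. Its log2 fold change was -0.59 ± 0.13 (edgeR adjusted p = 0.037), and -0.47 without control replicate 2. The neuronal tubulin Tubb3 measured 556 ± 61.8 against 561 ± 71.2 CPM (SD, n = 5 each) and differed by -0.01 ± 0.11, and the neurofilament Nefl measured 4386 ± 572 against 4673 ± 344 CPM and differed by -0.09 ± 0.11. The pan-neuronal median was -0.23, and 13 of 14 values were below 0.

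Markers of motor neuron identity were present, as a sum, in all 10 libraries: 9 of 12 were fitted, and the list summed to 192 to 276 CPM at low intensity and 219 to 323 CPM in the controls. Foxp1 alone measured 133 ± 20.2 and 143 ± 19.1 CPM (SD, n = 5 each), so the sum rests largely on 1 gene and says little of the other markers. No marker of the list was called, with Mnx1 at -0.51 ± 0.46, Isl1 at -0.67 ± 0.49 and a median of -0.24. Of 7 fitted cholinergic genes none was called. The choline acetyltransferase Chat measured 5.53, 6.37, 7.49, 7.59 and 10.5 CPM at low intensity and 10.1, 15.8, 16.2, 7.95 and 6.67 CPM in the controls, which overlapped, and differed by -0.59 ± 0.32 (edgeR adjusted p = 0.386). The vesicular transporter Slc18a3 gave -0.25 ± 0.16. The choline transporter Slc5a7 measured 11.1, 15.0, 21.5, 17.1 and 12.2 CPM against 24.7, 39.3, 36.9, 40.2 and 21.2 CPM, crossing at low-intensity replicate 3 and control replicate 6, and differed by -1.08 ± 0.27 (edgeR adjusted p = 0.058).

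Synaptic vesicle genes (0 of 19 called, median -0.23) and voltage-gated ion channels (0 of 17, median -0.39, 15 below 0) were also below 0 in the count fit without passing. On the TPM scale the medians of the pan-neuronal, motor neuron, cholinergic, synaptic and channel lists turned above 0, at 0.53, 0.32, 0.26, 0.51 and 0.41, each under the 0.64 median of all genes. Other neuronal genes among the 88 included the ubiquitin ligase Hecw1, at 76.4, 86.9, 95.7, 102 and 87.4 CPM against 138, 172, 166, 134 and 116 CPM without overlap (-0.70 ± 0.14, edgeR adjusted p = 0.0261), and, picked after their values were seen, the kinase Pak5 at -1.02 ± 0.23.

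Ntn1 encodes netrin, a guidance cue secreted along the paths of axons. It measured 70.6, 75.3, 58.9, 80.9 and 58.2 CPM at low intensity and 45.7, 17.2, 27.7, 23.4 and 47.5 CPM in the controls, without overlap, and differed by 1.07 ± 0.21 (edgeR adjusted p = 0.0273). It was the 1 called of 21 axon guidance genes, whose median was -0.13. Its receptors Dcc and Unc5c gave -0.39 ± 0.20 and -0.66 ± 0.17 (edgeR adjusted p = 0.371 and 0.0614). Of 19 fitted growth factors and receptors none was called: the GDNF receptors Ret and Gfra1 gave -0.39 ± 0.19 and -0.33 ± 0.18, and the CNTF receptor Cntfr -0.21 ± 0.16. Of 16 genes known from axon regeneration none was called, with Gap43 at -0.11 ± 0.15.

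**Figure D3:**
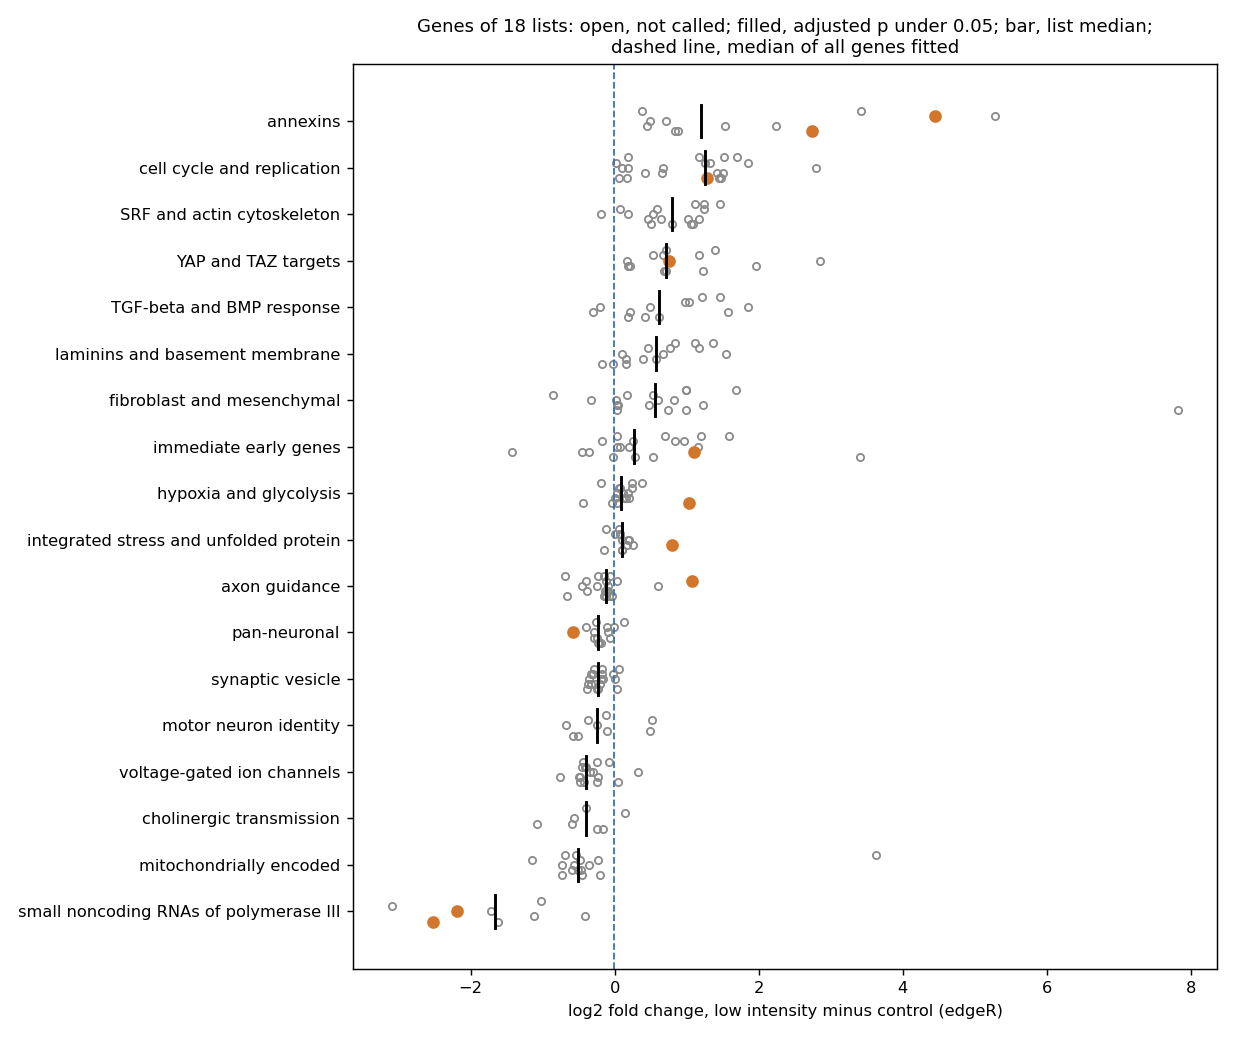
Log2 fold change (low intensity minus control, count fit) of each fitted gene in 18 lists; filled points passed an adjusted p under 0.05, black bars are list medians and the dashed line is the median of all genes fitted. Annexins and cell cycle genes lie above 0 with medians of 1.20 and 1.25, neuronal lists lie slightly below 0, and polymerase III RNAs lie lowest with a median of -1.67.

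Markers of other cells were checked beside these results. Of 18 fibroblast and mesenchymal markers none was called, 16 were above 0 and the median was 0.56. Their summed level was 663, 3229, 437, 1058 and 1572 CPM in low-intensity replicates 1 to 5 and 801, 1338, 633, 673 and 574 CPM in the controls, which overlapped, and no marker of the list was at 0 in all 10 libraries. S100a4 had 30, 5, 0, 0 and 50 counts in low-intensity replicates 1 to 5 and 0 in every control, so replicates 3 and 4 matched the controls. As a group sum, its 85 counts were at least 29.9-fold higher, and with S100a4 at this bound the list median was also 0.56. Collagen Col1a1 measured 65.8, 1332, 95.0, 366 and 279.9 CPM against 207, 423, 120, 185 and 143 CPM, highest in low-intensity replicate 2, and differed by 0.99 ± 0.68 (edgeR adjusted p = 0.529). The replicates with high annexins, 1, 2 and 5, held 663, 3229 and 1572 CPM of the fibroblast list, so that replicate 1 was within the control range.

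Only 4 of 14 skeletal muscle markers were fitted and none was called. Their summed level was 7.83 to 141 CPM at low intensity and 8.46 to 71.1 CPM in the controls. Myod1, the myogenic master factor, had 11 counts over the low-intensity libraries, all in replicate 5, and 0 over the controls. Myog had 1 count in all 10 libraries together, and Mymk, the muscle fusion factor, was at 0 in all 10. Xist, the RNA that coats the inactive X chromosome, measured 106, 39.3, 1.36, 3.16 and 144 CPM at low intensity and 0, 0, 0, 5.15 and 0.290 CPM in the controls. It was high in low-intensity replicates 1, 2 and 5, the same replicates in which Anxa1, Vim, Nes and Ahnak were high, and did not pass the test (log2 fold change 6.08 ± 1.58, edgeR adjusted p = 0.0612). The part of other cells or of unlike cell populations in the annexin, filament and cell cycle results was not tested.

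Among called genes picked after their values were seen, Msln (mesothelin) had 141 counts over the low-intensity libraries and 0 over the controls, at least 49.7-fold higher. The lipoxygenase Alox5 had 88 and 2 counts, a ratio of 46.5 (95% counting interval 12.5 to 390), and the ubiquitin ligase adaptor Asb5 99 and 2 counts, a ratio of 52.3 (14.1 to 438). These intervals and limits cover counting error only. All 3 genes were highest in replicates 1, 2 and 5.

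Libraries 1, 2, 3 and 6 of the other medium group, labelled high intensity, were fitted in the same model and share the 5 controls, so the fold changes at the 2 intensities are only set side by side. Against the controls, 68 genes (0.462%) were called at high intensity, and of the 88 genes called at low intensity 17 were among them and 87 had the same sign. The difference between intensities was tested directly, and 0 genes passed (edgeR), with 1131 (7.68%) at an unadjusted p under 0.05. Among the 88 genes, 31 had such an unadjusted p, but the 88 were selected by their low-intensity values. This selection favours a gap from high intensity, so their share cannot be weighed against that of all genes. At high intensity 73 of the 88 had a smaller absolute log2 fold change from the controls. Among the 88, the smallest adjusted p of the direct test belonged to Gm6166 (0.0905, edgeR), a predicted gene of uncertain mapping, and to Atf4 and Tasor (0.0939 each, edgeR).

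Atf4 measured 125 ± 22.2 CPM at high intensity (SD, n = 4), and its log2 fold change from the controls was 0.20 there and 0.80 at low intensity. Tasor measured 93.4 ± 9.90 CPM at high intensity, with -0.01 against -0.78. Slc2a1 gave 0.42 and 1.03, and Baz1a 0.40 and 1.29. Ntn1 (0.98 and 1.07), Wls (1.20 and 1.08), Top2a (1.30 and 1.28), Neat1 (2.85 and 2.40) and Anxa3 (4.07 and 4.45) were called at both intensities. In the 7 deeper array libraries Slc2a1 measured 65.9 to 110.9 CPM, Ntn1 65.9 to 108.3 and Tasor 50.9 to 73.6. Zfhx4 measured 111 to 164.9 CPM there and Xrn1 30.9 to 42.1. For these genes and Atf4 the array range overlapped low intensity and no control, so such levels were not particular to low intensity. Neat1 (5.20 to 14.9 CPM) overlapped the controls only, and Anxa3 (1.545 to 22.6 CPM) overlapped both groups. The cause was not tested.

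**Figure D4:**
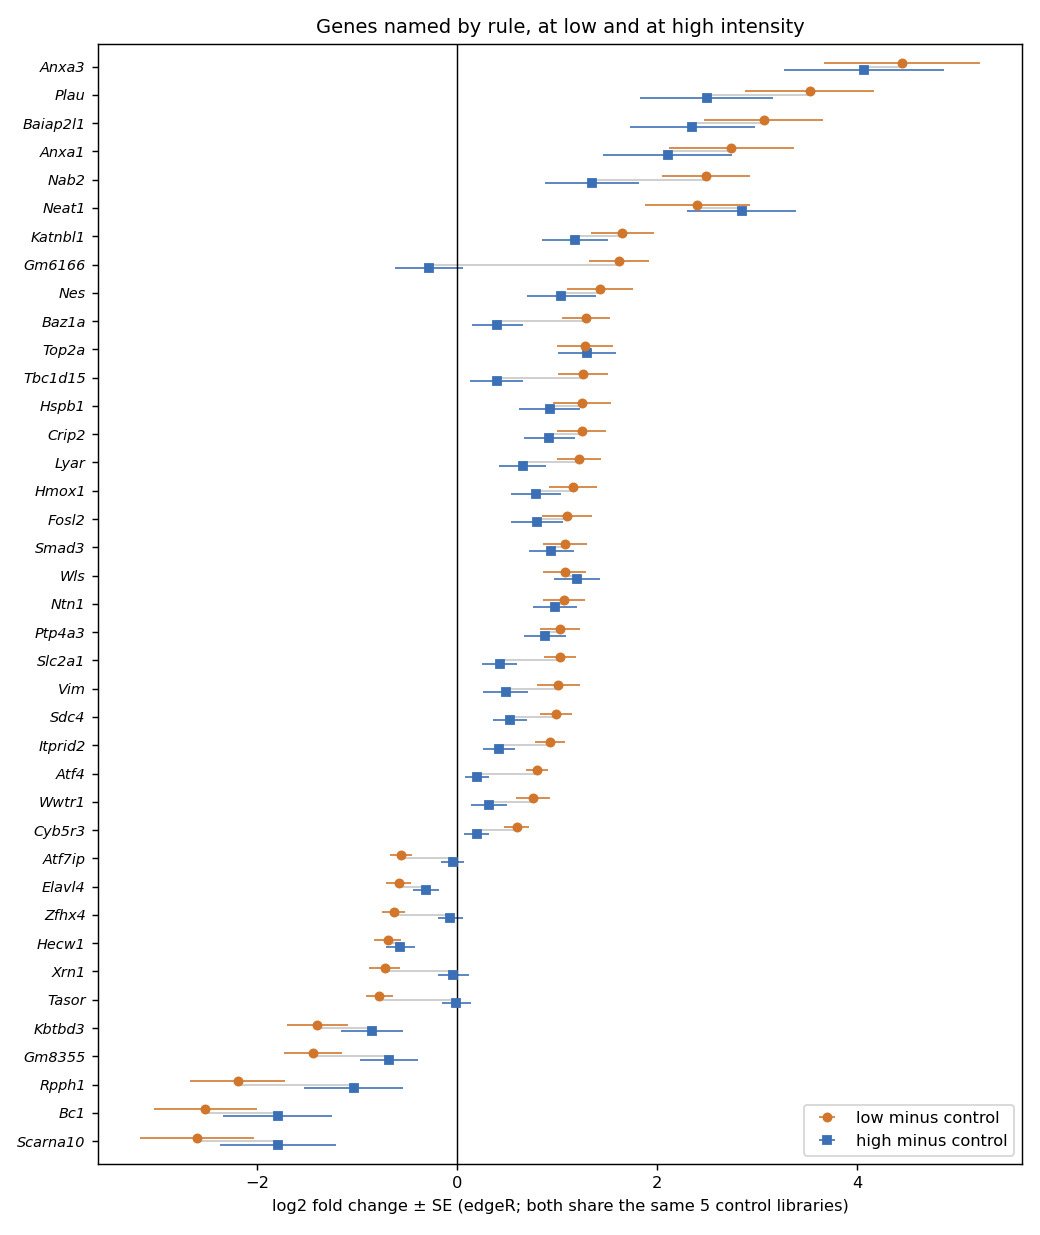
Log2 fold change ± SE from the shared controls of the genes named by rule, at low intensity (orange circles) and high intensity (blue squares). Atf4, Tasor, Zfhx4, Atf7ip and Xrn1 are nearer 0 at high intensity, while Ntn1, Wls, Top2a, Neat1 and Anxa3 were called at both; no gene passed the direct test between intensities.

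Further genes named by rule are given by their fold changes. Higher at low intensity were Lyar, a nucleolar growth regulator (54.5, 35.6, 31.7, 37.3 and 65.6 CPM against 16.1, 15.8, 20.4, 18.7 and 25.8 CPM, without overlap; 1.22 ± 0.22, edgeR adjusted p = 0.019), Crip2, a LIM domain protein (1.25 ± 0.24), the phosphatase Ptp4a3 (1.03 ± 0.20), the membrane-bending adaptor Baiap2l1 (3.07 ± 0.60, and 3.69 without control replicate 6), Katnbl1, a katanin regulator (1.65 ± 0.32), the Rab GTPase-activating protein Tbc1d15 (1.26 ± 0.25) and the reductase Cyb5r3 (0.59 ± 0.12). Gm6166 measured 54.8, 85.4, 41.6, 17.7 and 39.1 CPM against 22.7, 15.4, 12.7, 14.5 and 12.8 CPM, overlapping through low-intensity replicate 4. Lower were the BTB and kelch domain protein Kbtbd3 (-1.40 ± 0.30) and the predicted gene Gm8355 (-1.44 ± 0.29).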

How the data were processed

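Total RNA of 26 mouse cultures was sequenced in 50-base paired-end reads from 4 ng of RNA (the full volume for the 8 samples of lowest concentration) after enzymatic removal of ribosomal fragments, per the labels' protocols. The authors deposited expected counts, given as whole numbers and used as deposited, and TPM, per gene. Salmon, STAR, BWA 0.7.12-r1039 and bedtools 2.25.0 and the builds mm10, hg19 and GRCm39 are listed without roles, per the submitters' processing notes. Which strand was counted, and how reads with several matches were treated, is not stated in the labels or headers. Values of pseudogenes, near-identical copies and antisense genes are therefore uncertain.

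The 21 libraries with at least 1000000 protein-coding counts (5 low intensity, 5 control, 4 high intensity, 7 arrays) entered 1 model with 1 coefficient per group in edgeR 4.0.16 (R 4.3.3; TMM scaling, filterByExpr, quasi-likelihood F-test), with Benjamini-Hochberg adjustment over 14730 genes. CPM values are TMM-scaled. Composition measures were compared by exact two-sided permutation over 252 splits. Each pair of the 10 libraries differed by more than sampling noise (chi-square per degree of freedom 4.74 to 41.7 over genes with 20 or more counts). In simulated counts, 63% of 100 genes with a log2 fold change of 1 and 93% of 100 with 2 were recovered on 14297 genes, with 4 calls outside them. The simulated counts were drawn independently for each gene, without the unevenness that many genes shared among the low-intensity replicates. These shares hold for that setting only. Alternatives used DESeq2 1.42.0 and limma 3.58.1. The counts table supplied the gene classes, since the TPM table's classes match it for 25.3% of genes only.

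Genes were named by a rule: the 20 higher and 12 lower of smallest p, every called list member, and the 2 most abundant members of a list. Further uncalled list members given beside a called gene, and the called genes marked so in the text, were chosen after their values were seen. The comparison and the lists were chosen with earlier results of these data known. Some called genes are not reported here.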

Additional observations from a re-analysis of the deposited data

Results flagged for a closer look

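Single libraries stood apart from the other 4 of their group by Dixon's 95% criterion in 8 of 106 groups of values tested, and chance gives about 1 in 20. Atf4 was 95.8 CPM in control replicate 3, with the nearest control at 110. Plau was 96.9 CPM in low-intensity replicate 5, with the nearest at 27.7. Gm6166 was 22.7 CPM in control replicate 1 beside 15.4. Tbc1d15 was 66.0 CPM in low-intensity replicate 5 beside 42.9. Elavl4 was 174.5 CPM in control replicate 2 beside 128.8. Scarna10 was 221.4 CPM in control replicate 1 beside 68.7. The share of counts in long noncoding RNA was 2.21% in control replicate 2 beside 1.92%. Genes with a count numbered 22890 in low-intensity replicate 4, the shallowest of the 10 libraries, beside 17770.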

How the results depend on the processing

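The count of 88 genes (2237 at an unadjusted p under 0.05) depended on the libraries and the tool. It was 21 on the 10 libraries alone (66.7% of them higher, 73.9% in the reported fit), 11 on the 14 libraries of the 3 medium groups (81.8% higher), 4 with all 26 libraries (50% higher), 660 without a filter on low counts, 378 at an adjusted p under 0.1, 470 with DESeq2 and 1 with limma voom and quality weights. On log2(TPM + 1) it was 5440 (5423 higher, 17 lower; 99.7% higher) and on log2(TPM + 0.1) 5537 (5517 higher, 20 lower; 99.6% higher). DESeq2 size factors (89), a filter of 1 CPM (87), removal of mitochondrial and rRNA genes (92), thinning each library's total to that of the shallowest (78, of which 54 were among the 88) and protein-coding genes alone (106, added after seeing the data) stayed within 1.5 times. Leaving out 1 library in turn gave 2 to 264; 221 without high-intensity replicate 3, and 41, 43, 53 and 47 without actuated array replicates 1 and 4 and static array replicates 1 and 2. With the replicate number as a block, 8 genes passed, all among the 88 (Atf4, Sdc4, Itprid2, Nab2, Tasor, Lyar, Katnbl1 and Xrn1), but same-numbered libraries did not deviate together (correlations 0.05, -0.07, -0.01 and -0.21 over 5787 genes), so the numbers do not pair the samples.

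On log2(TPM + 1) and log2(TPM + 0.1), the differences of Tasor (0.026 and 0.029), Zfhx4 (0.32 and 0.34), Atf7ip (0.44 and 0.44), Hecw1 (0.21 and 0.23) and Xrn1 (0.63 and 0.68) were above 0, beside all-gene medians of 0.64 and 0.74. Of 1393 alternatives for the 40 named genes, 1383 kept the direction and 367 lost the call. The cause was not tested. The composition differences stayed under 0.05 with rRNA and mitochondrial genes left out of the total (adjusted exact p = 0.0265 each) and without any 1 control. Without any 1 low-intensity library the adjusted exact p was 0.103. The groups were still separated there, as they had to be. The unadjusted exact p of protein-coding genes was still 0.00794, that of ribozymes 0.0238 and that of miscellaneous RNA 0.0159 to 0.0238. Without 1 library in turn the differences were -4.75 to -2.99 percentage points for miscellaneous RNA, -0.134 to -0.0793 for ribozymes and 7.27 to 8.81 for protein-coding genes. Depth limits genes of a few CPM, where 3 counts are 0.795 to 1.93 CPM.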
